A study of Mus musculus with 10 samples.

Results

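MHC class I and peptide loading genes in mouse blood were followed through 9 named genes, the heavy chains H2-K1, H2-D1, H2-T23, H2-Q7 and H2-T22, and the peptide transport, loading and trimming genes Tap1, Tap2, Tapbp and Erap1. They were chosen by name. Of these 9 genes, 3 (Tap1, Tap2 and Tapbp) had a row among the 8904 genes of the expression table, and all 3 passed the filter on low values. The other 6 are not analysed here, so the heavy chains themselves are not described. Blood RNA was sequenced from 5 metformin-treated mice and 5 control mice given PBS, each for 30 days, to compare the blood transcriptome with and without metformin, a glucose-lowering drug used in diabetes. All were adult C57BL/6 mice, 8 months old, whose labelled genotype is that strain. The authors state that metformin was tested only in middle-aged female mice. The methods name a general metformin dose of 5 mg/kg, by tail vein or by mouth, but not which route these mice had. Each library was taken as 1 mouse, which the labels do not state outright, so that p-values measure the spread between these libraries. Values are log2 FPKM, that is, read fragments scaled to the length of the transcript and the depth of the library, on a log2 scale, so levels of different genes are per length. The offset added before the logarithm is not stated, and the depth of the libraries is unknown.

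MHC class I molecules carry peptides from the cytosol to the cell surface, where CD8+ T cells read them. Proteasomes cut proteins into peptides, the TAP transporter, built from Tap1 and Tap2, pumps these into the endoplasmic reticulum, and tapasin, the product of Tapbp, holds empty class I molecules next to TAP until a peptide fits. Nucleated blood cells of nearly every kind carry the pathway, lymphocytes strongly, and interferon and NF-kB signalling are known to raise its genes.

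Cell markers set the control libraries apart from each other. The mean of 19 heart muscle markers lay between 0.89 and 1.13 with metformin and between 0.18 and 1.74 in control 2, 3 and 4, but reached 7.82 in control 1 and 7.86 in control 5. Fast skeletal muscle markers (13 genes with a row) averaged 4.72 to 5.34 with metformin, 0.33 to 0.56 in control 2 to 4, 1.32 in control 1 and 1.19 in control 5. Pan-leukocyte markers, 15 genes such as Ptprc and Coro1a that white blood cells share, averaged 1.67 to 2.41 in the metformin-treated group, 3.50 to 3.76 in control 2 to 4, 2.99 in control 5 and 0.65 in control 1. Erythroid markers averaged 5.26 to 5.51 with metformin and 4.44 to 5.15 in control 2 to 4, but 0.59 in control 1 and 1.99 in control 5. No marker of these lists was at 0 in any library. Heart transcripts thus stood out in control 1 and control 5, skeletal muscle transcripts in all 5 metformin-treated mice, and control 1 had the lowest levels of both white and red blood cell markers. Differences between the groups are given over all 10 libraries and again without control 1 and control 5. These libraries were separated by their values, so no test was run between them and the other controls.

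Tap1, Tap2 and the immunoproteasome genes Psmb8 and Psmb9 lie side by side in the class II region of mouse chromosome 17, and Tapbp lies in the same complex. On GRCm38, Tap1 spans chr17:34187553-34197225, Tap2 chr17:34203527-34216321 and Tapbp chr17:33915899-33929292, all on the plus strand. Psmb9 runs the other way at chr17:34181987-34187764 and shares 212 bases with Tap1, and the RefSeq starts of the pair are 225 bases apart. Tapbp shares 3422 bases with Zbtb22 on the same strand. Antisense genes overlap Tap2 and Tapbp. Strand use in the counting was not stated, so reads of stretches shared between opposite strands cannot be assigned to one gene. For the stretch that Tapbp shares with Zbtb22, strand would not separate the reads.

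Short stretches of the upstream sequence are shown because the loading genes correlated across libraries and share known regulators. RefSeq promoter windows (GRCm38.p6) were at hand for Tap1, Tapbp and B2m, the light chain of class I molecules. Each window of 250 bases before the start was searched on both strands for an interferon response element (GAAA, any 2 bases, GAAA), an NF-kB site (GGGA, any 2 bases, TTCC), a cAMP response element (TGACGTCA), a GC box (GGGCGG) and a CCAAT box (CCAAT). The 30 bases around the GC box of Tap1 and that of Tapbp, and around the interferon and NF-kB matches of B2m, read as follows on the plus strand, 5′ to 3′, with the matches in capitals.
Tap1, chr17:34187368-34187397: cagactgaggccCCGCCCcatcatcgcgca
Tapbp, chr17:33919415-33919444: ggcacagcaggaGGGCGGagtctaggctga
B2m, chr2:122147545-122147574: catGAAACTGAAAatgGGAAAGTCCCtttg
The interferon element of B2m begins at position -139 and the NF-kB match, read on the other strand, at -126, where -1 is the last base before the start. Neither motif was matched in the windows of Tap1 and Tapbp, which held GC and CCAAT boxes; this says only that those letters are not in these 250 bases, and no window of the 3 matched the cAMP element. In the GENCODE annotation the stretch shown for Tap1 lies within Psmb9, and that for Tapbp within Tapbp itself, whose annotated gene begins further upstream. Among 32851 mouse promoter windows of this length, 2.98% held the interferon element, 1.21% the NF-kB motif, 1.55% the cAMP element, 32.7% a GC box and 33.8% a CCAAT box, so the boxes of Tap1 and Tapbp are common ones.

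Tapbp differed most of the 3 genes. Its log2 FPKM was 1.64, 1.44, 1.69, 1.24 and 1.26 in metformin-treated mice 1 to 5, against 1.29, 3.02, 2.85, 3.64 and 2.15 in control mice 1 to 5. Control 1 lay within the range of the metformin-treated group, and the other 4 controls lay above all of it. The mean was 1.45 ± 0.21 in the metformin-treated group and 2.59 ± 0.90 in the control group (SD, n = 5 each). The log2 difference, metformin minus control, was -1.13 (SE 0.39), with an adjusted p of 0.0981 (limma, with the Benjamini-Hochberg correction across 3442 tested genes) and an exact two-sided permutation p of 0.0317, where 0.00794 is the smallest that 5 against 5 libraries allow. Tapbp thus did not pass the threshold of 0.05 over all genes. Without control 1 and control 5, the control mean was 3.17 ± 0.41 (SD, n = 3) and the groups no longer overlapped, as in 12.9% of all tested genes with every metformin-treated mouse below. The difference was then -1.71 (SE 0.24) and passed, with a limma adjusted p of 0.00136 and an exact permutation p of 0.0179, the smallest that 5 against 3 allow. Control 1 alone decided the call: without it the difference was -1.46 with a limma adjusted p of 0.0169, in a comparison that called 6.89% of all tested genes lower.

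**Figure D1:**
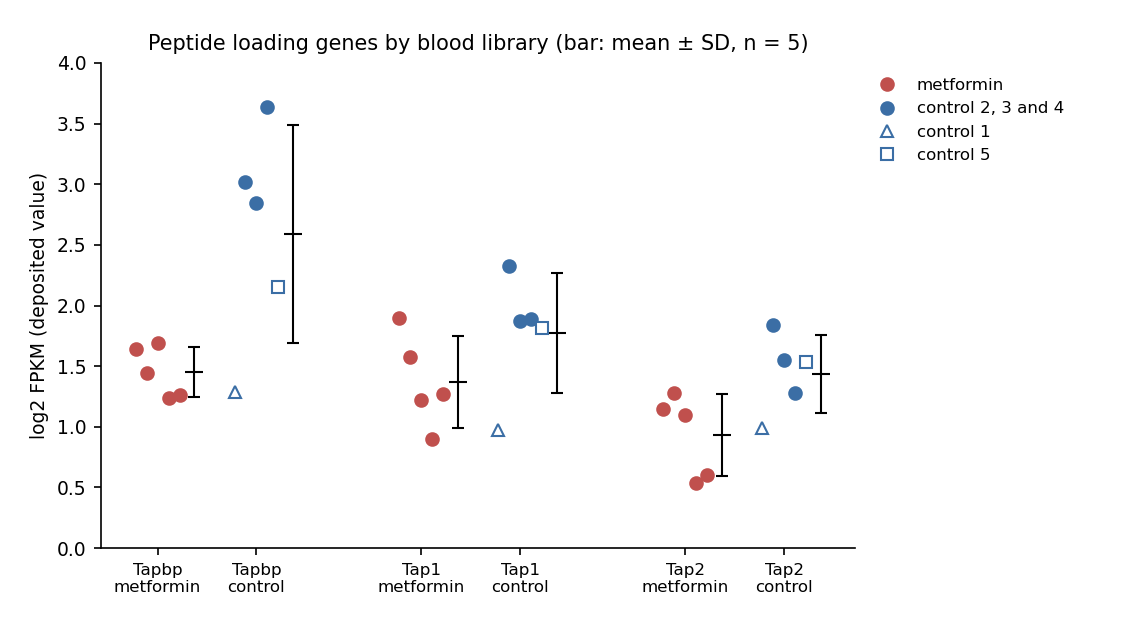
Log2 FPKM of Tapbp, Tap1 and Tap2 in each blood library, with metformin-treated mice left of control mice for each gene and bars for the mean ± SD of 5 libraries. Tapbp lay between 1.24 and 1.69 in the metformin-treated group and between 2.85 and 3.64 in control 2, 3 and 4, while control 1 (open triangle) sat at 1.29 and control 5 (open square) at 2.15.

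Tap1 encodes 1 chain of the peptide transporter. It read 1.90, 1.57, 1.22, 0.90 and 1.27 in metformin-treated mice 1 to 5 and 0.97, 2.33, 1.87, 1.89 and 1.81 in control mice 1 to 5. Metformin-treated mouse 1 stood level with control 3 and control 4, and only metformin-treated mouse 4 was below control 1, so that the groups overlapped. Means were 1.37 ± 0.38 in the metformin-treated group and 1.77 ± 0.49 in the control group (SD, n = 5 each). The log2 difference of -0.40 (SE 0.27) did not pass (limma adjusted p = 0.310, exact permutation p = 0.206). Leaving out control 1 and control 5 gave -0.66 (SE 0.24), which did not pass either (limma adjusted p = 0.0987, exact permutation p = 0.0714).

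Tap2, the partner chain, was the lowest of the 3 genes. Metformin-treated mice 1 to 5 had 1.15, 1.28, 1.10, 0.54 and 0.60, and control mice 1 to 5 had 0.99, 1.84, 1.56, 1.28 and 1.53. Only metformin-treated mice 4 and 5 were below every control, and the top value of the metformin-treated group equalled that of control 4 to 2 decimals. The group means were 0.93 ± 0.34 with metformin and 1.44 ± 0.32 in controls (SD, n = 5 each), a log2 difference of -0.51 (SE 0.21) that did not pass (limma adjusted p = 0.142, exact permutation p = 0.0556). It was -0.62 (SE 0.22) without control 1 and control 5, again short of the threshold (limma adjusted p = 0.0819, exact permutation p = 0.0714).

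Over all 10 libraries, then, 0 of the 3 genes were called by limma, where 3.11% of all tested genes were called lower and 4.21% higher, 7.32% in all. At an unadjusted limma p under 0.05, Tapbp and Tap2 were lower, as were 12.6% of all tested genes. Without control 1 and control 5, 1 of 3 was called lower, beside 9.06% of all tested genes lower and 14.9% called in either direction, and all 3 were lower at an unadjusted p under 0.05, beside 16.1%. The median log2 difference of the 3 genes was -0.51 over all libraries and -0.66 without the pair, beside 0.01 and 0.07 for all tested genes. Tapbp was measured at 1 or more in 10 libraries, Tap1 in 8 and Tap2 in 7, so none of them passed the filter through the control group alone.

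Within a library the 3 genes did not keep 1 spacing. Tap1 exceeded Tap2 in every library but control 1, by 0.44 ± 0.26 in the metformin-treated group and 0.33 ± 0.24 in the control group (SD, n = 5 each, exact permutation p = 0.508). Tapbp minus Tap1, in contrast, was -0.26, -0.13, 0.47, 0.34 and -0.01 in metformin-treated mice 1 to 5 and 0.31, 0.69, 0.98, 1.75 and 0.34 in control mice 1 to 5. Its mean was 0.08 ± 0.31 with metformin and 0.82 ± 0.59 in controls, with an exact permutation p of 0.0476 over all 10 libraries and of 0.0179 without control 1 and control 5 (6 such differences between genes were compared, and these p-values are unadjusted). Controls thus had more Tapbp than Tap1 in each of 5 libraries, whereas 3 of the 5 metformin-treated mice had slightly less. As a description over 10 libraries, Pearson's r was 0.86 between Tap1 and Tap2, 0.76 between Tap1 and Tapbp and 0.71 between Tap2 and Tapbp, and over 8 libraries, without control 1 and control 5, it was 0.89, 0.74 and 0.72 in that order. All points share 1 joint normalization and the same change in blood cell markers.

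The pan-leukocyte list moved with these genes. Of its 15 markers 1 was called lower over all libraries, beside 3.11% of all tested genes, and 12 without control 1 and control 5, beside 9.06%. Across the 10 libraries its mean correlated with Tapbp at r = 0.87, with Tap1 at 0.86 and with Tap2 at 0.76, while r for the heart list lay between -0.21 and 0.07. B cell markers averaged 0.87 to 1.91 in the metformin-treated group, 2.13 to 3.28 in control 2 to 4, 1.83 in control 5 and 0.13 in control 1. They correlated with Tapbp at 0.90, with Tap1 at 0.79 and with Tap2 at 0.61. T and NK cell markers averaged 0.70 to 1.45 with metformin, 1.46 to 2.24 in control 2 to 4, 1.15 in control 5 and 0.15 in control 1. Neutrophil markers overlapped, at 0.65 to 2.18 with metformin and 1.14 to 4.56 in control 2 to 4. They correlated with Tap2 at 0.80, with Tap1 at 0.72 and with Tapbp at 0.51. Monocyte markers overlapped as well, at 1.02 to 1.66 with metformin and 1.03 to 2.18 in control 2 to 4. The fast skeletal muscle list correlated with Tapbp at -0.76 over 10 libraries and -0.95 over 8. Its means were 4.72 to 5.34 with metformin and 0.33 to 0.56 in control 2 to 4, so the value over 8 largely reflects the split between groups. Skeletal muscle content and treatment cannot be told apart here, and the part of this list in the result was not tested. In bulk blood, fewer cells of a type and less RNA per cell cannot be told apart.

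Centring each library on its pan-leukocyte mean adds the same amount to the difference of every gene, and it moved the median of all tested genes to 0.88 over all libraries and 1.69 without control 1 and control 5. On that scale Tapbp differed by -0.27 (limma adjusted p = 0.742) and by -0.10 (0.737) without the pair, neither past the threshold. Tap1 stood at 0.47 (0.575) and 0.96 (0.00317), and Tap2 at 0.36 (0.666) and 0.99 (0.000724). Relative to the leukocyte markers both were higher with metformin without the pair, as were 92.5% of all tested genes, while all 3 loading genes stayed below the shifted median. Centring on 76 ribosomal protein genes, with medians of all genes at 0.86 and 0.78, gave -0.29 (limma adjusted p = 0.596) for Tapbp over all libraries and -1.01 (0.00998) without the pair, where 2.44% of all tested genes were called lower. Tap1 and Tap2 were above 0 there, at 0.45 and 0.34 over all libraries and 0.05 and 0.08 without the pair, none past the threshold and again below the medians. The sign of Tap1 and Tap2 therefore depends on what they are set against.

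**Figure D2:**
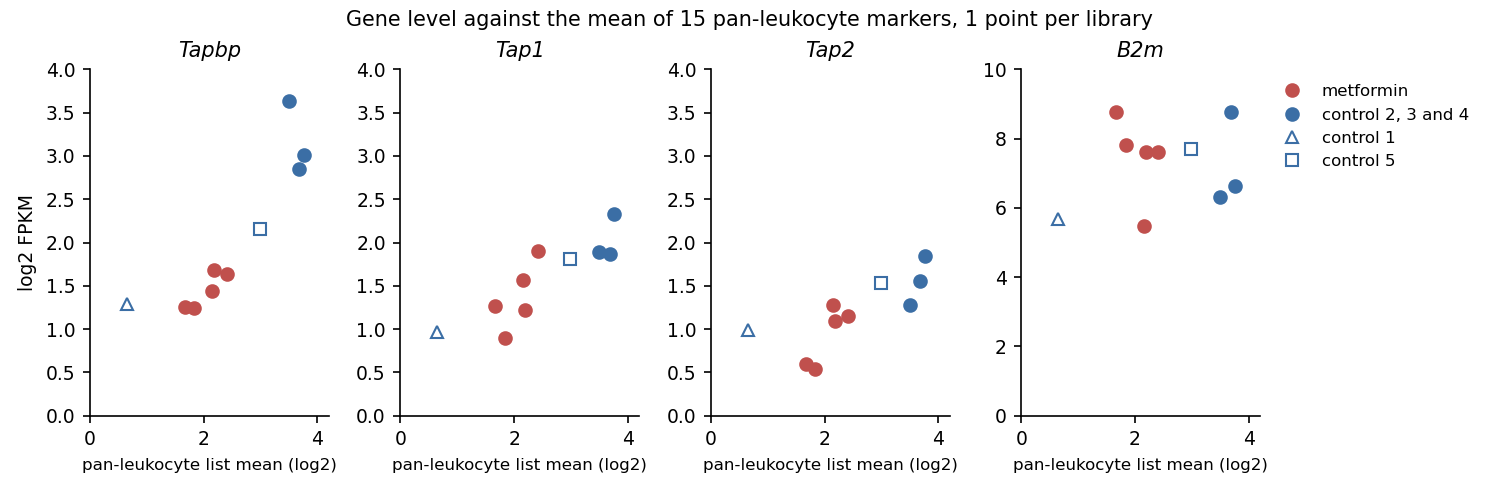
Log2 FPKM of Tapbp, Tap1, Tap2 and B2m (y axes, the last with a wider range) against the mean of the 15 pan-leukocyte markers (x axis, log2), with 1 point per library. Metformin-treated mice sat at list means of 1.67 to 2.41 and control 2, 3 and 4 at 3.50 to 3.76, the 3 loading genes were mostly higher where the list was higher, control 1 at a list mean of 0.65 had them near the metformin level, and B2m showed no such order.

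B2m, the light chain shared by all class I molecules, was far more abundant than the loading genes and did not follow them. It read 7.60, 5.47, 7.60, 7.82 and 8.77 in metformin-treated mice 1 to 5 and 5.69, 6.64, 8.77, 6.32 and 7.70 in control mice 1 to 5. Both groups covered nearly the same range. The log2 difference was 0.43 with a limma 95% interval of -1.19 to 2.05 and an adjusted p of 0.696 (exact permutation p = 0.571), an interval that spans a change of more than 1 log2 unit in either direction. Without control 1 and control 5 it was 0.21 (limma adjusted p = 0.860), without control 1 alone 0.096 and without metformin-treated mouse 2 it was 0.93, none past the threshold. B2m correlated with Tap1, Tap2 and Tapbp at r = -0.02, -0.22 and -0.05 over 10 libraries. Platelet markers (12 genes with a row) averaged 4.74, 0.48, 4.48, 4.99 and 5.07 in metformin-treated mice 1 to 5. In control mice 1 to 5 they averaged 0.23, 1.92, 5.66, 0.86 and 2.02. Both B2m and this list were lowest in metformin-treated mouse 2 and control 1 and highest in metformin-treated mouse 5 and control 3. The part of platelet content in the B2m values was not tested. Patl2 on the opposite strand covers the whole gene in the annotation (5398 bases).

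Of 50 further genes listed for the pathway, 31 had a row and 17 passed the filter. Limma called 1 of the 17 lower (Psmb10) and 0 higher over all 10 libraries, beside 3.11% and 4.21% of all tested genes, and 9 were lower and 0 higher at an unadjusted p under 0.05, beside 12.6% and 16.2%. On the deposited scale 15 of 17 differences were below 0, with a median of -0.51, beside 49.4% of all tested genes below 0. Of the 17, Psmb10, Nfkb1 and Rela reached a log2 value of 1 in 5 controls and 2 metformin-treated mice. Irf9 did so in 4 and 1. They thus passed the filter on low values wholly or mostly through the control group, a limit of these counts of lower genes. Besides B2m, the tested pathway genes described below are Psmb10, Psmb8, Psmb9, Pdia3, Hspa5, Nfkb1, Rela, Irf9 and Irf8. This set of 9 has Irf8 where the 9 genes counted above as lower have Psme1. Of the set described below, 7 were above 0 with leukocyte centring and 6 with ribosomal centring. Both centrings add a constant to every gene and put the median of all tested genes at 0.88 and 0.86. All 9 described genes stayed below those medians. Without control 1 and control 5, 7 of the 17 were called lower and 0 higher, beside 9.06% and 5.81% of all tested genes, and again 15 were below 0, beside 44.7%.

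**Figure D3:**
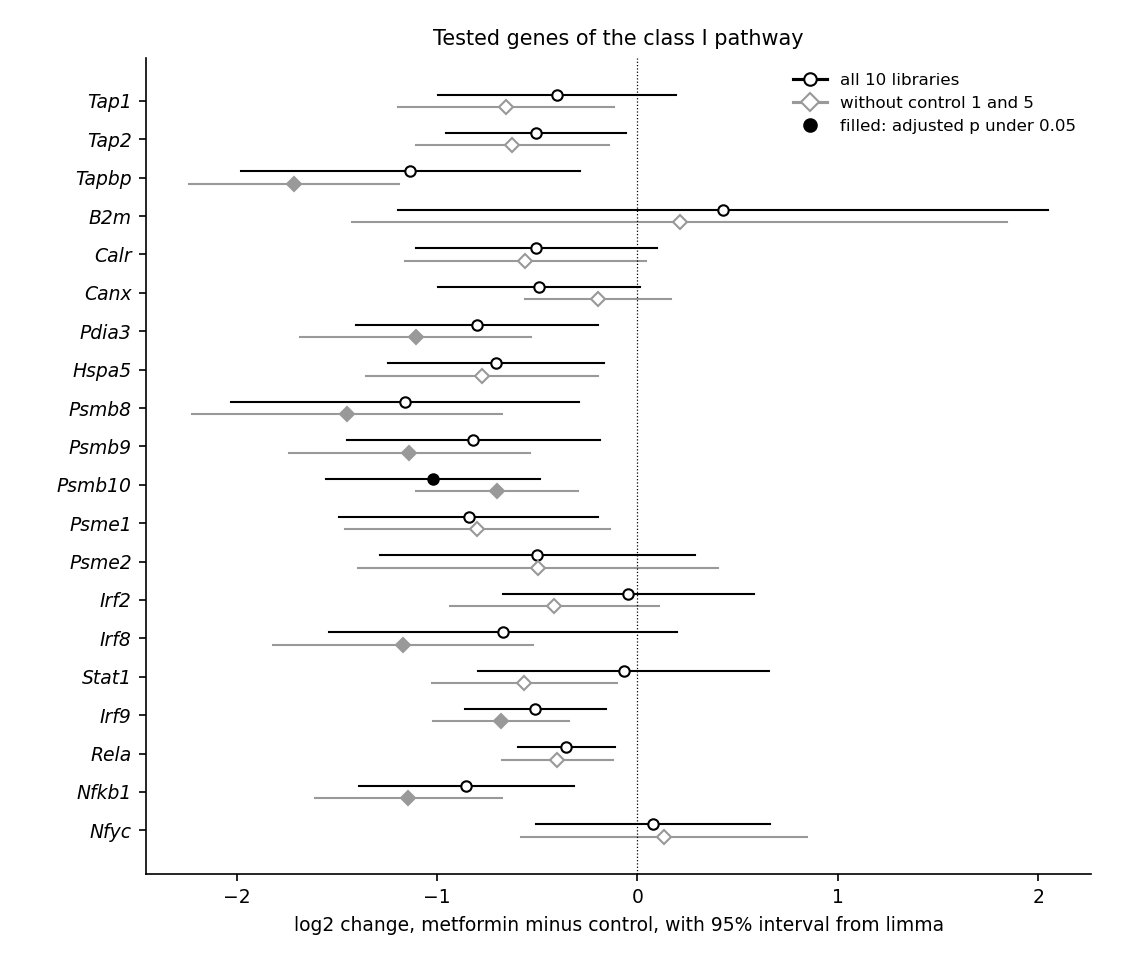
Log2 difference, metformin minus control, of the 3 loading genes and 17 further pathway genes on the deposited scale, with limma's 95% interval, over all 10 libraries (black circles) and without control 1 and control 5 (grey diamonds). Filled symbols passed the adjusted threshold of 0.05, which was Psmb10 alone over all libraries; Tapbp stood at -1.13 and -1.71 and B2m at 0.43 and 0.21, and Tap1 and Tap2, below 0 here, were above 0 but below the median of all tested genes (0.88 and 0.86) when all libraries were centred on leukocyte markers or ribosomal proteins.

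Psmb10, which takes the place of a catalytic subunit in the immunoproteasome, was the one pathway gene called lower over all libraries. It reached a log2 value of 1 in all 5 controls but 2 metformin-treated mice, so the control group alone carried it through the filter. It had 0.94, 1.28, 1.11, 0.96 and 0.69 in metformin-treated mice 1 to 5, and 2.27, 1.996, 1.47, 1.63 and 2.70 in control mice 1 to 5. Every metformin-treated mouse was below every control, which held for 5.23% of all tested genes, and the heart-rich control 1 and control 5 were the highest. The log2 difference was -1.02 (SE 0.24, limma adjusted p = 0.0311, exact permutation p = 0.00794, the smallest possible) and -0.70 without control 1 and control 5 (limma adjusted p = 0.0285). The call was lost when metformin-treated mouse 1, 3, 4 or 5 or control 5 was left out, with limma adjusted p-values between 0.0676 and 0.0929, and also with no filter on low values (0.0622) and with ribosomal centring (-0.17, adjusted p = 0.467, and -0.00070, 0.997, without the pair). Centred on the pan-leukocyte list, the difference was -0.15 (limma adjusted p = 0.881) over all libraries and 0.91 (0.00223), that is, higher with metformin, without control 1 and control 5. The antisense gene Gm16156 covers all 2710 bases of Psmb10.

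Psmb8, another inducible catalytic subunit, had 1.77, 2.62, 1.72, 1.48 and 0.89 in metformin-treated mice and 1.66, 3.35, 2.88, 3.20 and 3.18 in control mice, numbered 1 to 5. Only control 1 fell into the metformin range. The difference was -1.16 (limma adjusted p = 0.0983) over all libraries, not past the threshold, and -1.45 (0.0205) without control 1 and control 5. Psmb9, the neighbour of Tap1, had 1.67, 1.15, 1.10, 1.05 and 0.51 in metformin-treated mice and 1.25, 2.59, 1.80, 2.31 and 1.61 in control mice. Control 1 and control 5 lay within the range of the metformin-treated group and the other 3 controls above it. Psmb9 differed by -0.82 (limma adjusted p = 0.105) over all libraries and by -1.14 (0.0197) without the pair. Control 1 alone decided both calls, since without it Psmb8 was at -1.46 (limma adjusted p = 0.0239) and Psmb9 at -0.98 (0.0450). With leukocyte centring without the pair, where the median of all genes was 1.69, Psmb8 was at 0.16 and Psmb9 at 0.47, neither past the threshold, and with ribosomal centring Psmb8 was lower at -0.75 (0.0399) and Psmb9 stood at -0.44 (0.164).

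Each inducible subunit replaces a constitutive one, Psmb8 for Psmb5, Psmb9 for Psmb6 and Psmb10 for Psmb7, and the difference within a library does not depend on how that library was centred. These pairings were added to the comparison with values in view. Psmb10 minus Psmb7 was -0.97, -0.76, -0.66, -0.49 and -0.95 in metformin-treated mice and 0.40, 0.36, 0.00, -0.13 and 0.91 in control mice. Relative to Psmb7, all 5 metformin-treated mice had less Psmb10 than any control, with means of -0.77 and 0.31. The exact permutation p was 0.00794 over all libraries and 0.0179 without control 1 and control 5, the smallest possible in both. Psmb10 had already been called lower, and the control group alone carried it through the filter. Psmb7 averaged 1.76 with metformin and 1.71 in controls, so these p-values largely repeat the Psmb10 result. They are no separate support, and no share over all genes goes with them. Psmb8 minus Psmb5 averaged -0.36 with metformin and 0.52 in controls (exact permutation p = 0.135), and 1.25 in control 2 to 4 alone (p = 0.0179). Psmb9 minus Psmb6 averaged -0.82 with metformin and -0.81 in controls (exact permutation p = 0.984), where control 1 and control 5 had -2.51 and -2.20. Without these it was 0.22 in controls and the groups still overlapped (exact permutation p = 0.0714).

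**Figure D4:**
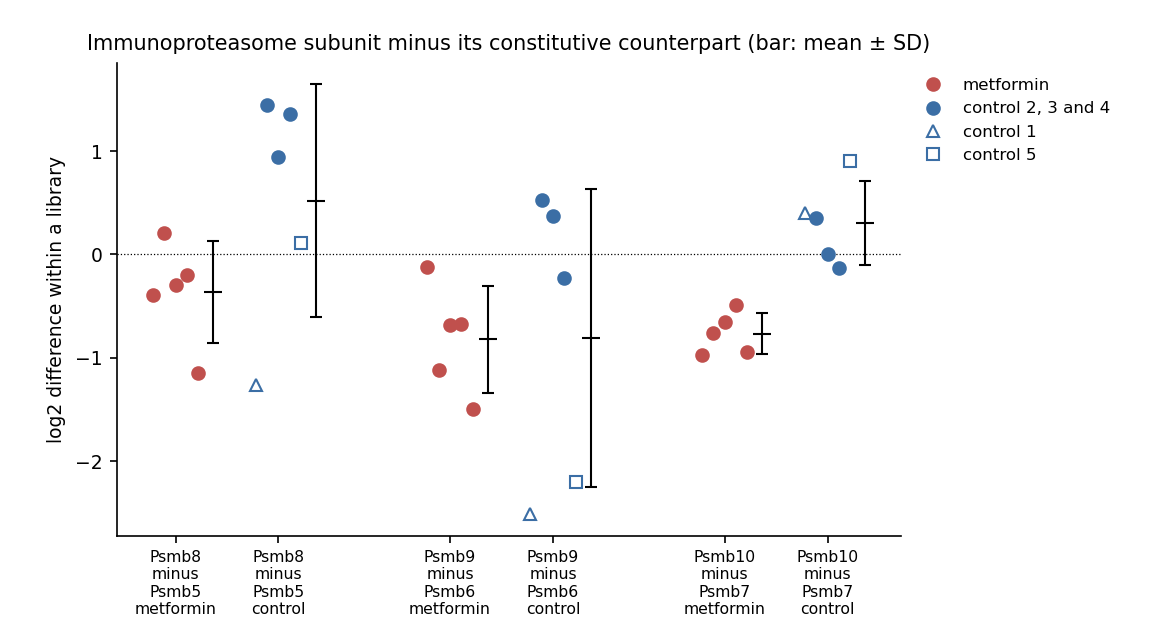
Log2 difference within each library between an inducible proteasome subunit and the constitutive subunit it replaces, with metformin-treated mice left of control mice and bars for the mean ± SD of 5 libraries. Psmb10 minus Psmb7 did not overlap between groups (-0.97 to -0.49 with metformin, -0.13 to 0.91 in controls), which repeats the lack of overlap of Psmb10 itself. Control 1 and control 5 (open symbols) spread Psmb8 minus Psmb5 and Psmb9 minus Psmb6 over the metformin range.

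Of the chaperones that fold and load class I molecules, 4 were tested and 0 passed in limma over all libraries, beside 7.32% of all tested genes, with 2 lower at an unadjusted p under 0.05, beside 12.6%. Pdia3, the thiol oxidoreductase that works beside tapasin in the loading complex, read 1.10, 1.99, 1.33, 1.38 and 0.84 in metformin-treated mice 1 to 5 and 1.66, 2.34, 2.28, 2.69 and 1.68 in control mice 1 to 5. Metformin-treated mouse 2 reached into the control range. Its difference was -0.80 (limma adjusted p = 0.1003) over all libraries and passed at -1.11 (0.0186) without control 1 and control 5. Hspa5, a general chaperone of the endoplasmic reticulum, differed by -0.71 (limma adjusted p = 0.104) and by -0.78 (0.0736) without them. With leukocyte centring, which put the median of all genes at 0.88, Pdia3 stood at 0.07 and Hspa5 at 0.16, both still below that median.

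Among the transcription factors known to act on class I genes, 7 of 16 passed the filter. Limma called 0 of them over all libraries, beside 7.32% of all tested genes. At an unadjusted limma p under 0.05, 3 were lower, beside 12.6%. Nfkb1 and Rela reached a log2 value of 1 in 5 controls and 2 metformin-treated mice, and Irf9 in 4 and 1. They passed the filter wholly or mostly through the control group, which limits their p-values and lack of overlap below. Nfkb1, which encodes an NF-kB subunit, had 1.18, 1.06, 0.85, 0.76 and 0.54 in metformin-treated mice and 1.02, 1.79, 1.83, 2.45 and 1.58 in control mice. Control 1 lay inside the metformin range. The difference was -0.85 (limma adjusted p = 0.0583), and -1.14 (0.00608) without control 1 and control 5. Rela, its usual partner, read 0.77 to 1.03 with metformin and 1.12 to 1.37 among controls, without overlap (5.23% of all tested genes likewise lay below all controls). Its difference of -0.35 still missed the threshold (limma adjusted p = 0.0785), as did -0.40 (0.0569) without the pair. Irf9, part of the interferon-activated complex ISGF3, differed by -0.51 (limma adjusted p = 0.0793) and passed at -0.68 (0.0151) without the pair. Irf8, a factor of lymphoid and myeloid cells, differed by -0.67 (0.254) and passed at -1.17 (0.0241). Leaving out control 1 alone made the call for 3 of them, with Nfkb1 at -1.03 (limma adjusted p = 0.0186), Irf9 at -0.62 (0.0285) and Irf8 at -1.03 (0.0461), whereas without control 4 Irf8 was at -0.43 (0.428). With leukocyte centring all 4 were above 0 but below the median of all genes at 0.88, at 0.01 for Nfkb1, 0.51 for Rela, 0.36 for Irf9 and 0.20 for Irf8 over all libraries. Nlrc5, the class I transactivator, did not pass the filter. Its range was 0.34 to 0.81 with metformin and 0.52 to 0.71 among controls, and it is named here because of that role, with its values in view. Irf1, another factor of this list, also did not pass the filter, reaching 1 in 4 controls and 0 metformin-treated mice. It read 0.48 to 0.99 with metformin, 1.55 to 1.80 in control 2 to 4, 1.36 in control 5 and 0.95 in control 1. Irf1 too is named with its values in view.

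Genes outside the members with the most similar profile were sought by the Pearson correlation with the mean of Tap1, Tap2 and Tapbp over 10 libraries. The 5 highest were Btg2 (r = 0.991), Slfn2 (0.988), Mcl1 (0.980), Ctss (0.976) and Unc93b1 (0.972), which over 8 libraries, without control 1 and control 5, had r between 0.970 and 0.991. Their log2 differences lay between -1.33 for Slfn2 and -0.72 for Btg2 over all libraries. Without control 1 and control 5 they lay between -1.96 for Slfn2 and -1.09 for Btg2. No p-value is given, since the genes were picked in these libraries for likeness to the mean of the 3 loading genes. Their direction follows from that choice. Ctss, a lysosomal protease that trims the invariant chain of class II molecules, had 2.07, 1.54, 1.97, 1.02 and 1.18 in metformin-treated mice and 0.87, 3.52, 3.21, 3.37 and 2.87 in control mice. As with Tapbp, control 1 was the lone control at the metformin level.

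Class II presentation was represented by Cd74, the invariant chain, the one tested gene of its list. It read 4.92, 4.60, 3.74, 2.96 and 2.56 in metformin-treated mice and 2.13, 6.77, 7.90, 7.45 and 6.89 in control mice. Its difference was -2.48 (limma adjusted p = 0.145) over all libraries, and -3.62 (0.00262) without control 1 and control 5. Interferon-induced genes as a list did not fall with the loading genes, though single genes did. Of 13 tested, limma called 0 higher and 1 lower, beside 4.21% and 3.11% of all tested genes. Their unadjusted limma p fell under 0.05 for 6 with higher values (16.2% of all tested genes) and for 1 with lower values (12.6%). In 1 of the 13, every metformin-treated mouse was below every control (5.23%), and 4 differences were below 0 (49.4%). Without control 1 and control 5, 0 were called higher (5.81%) and 2 lower (9.06%). The median difference was 0.52 over all libraries and 0.29 without the pair. The mean of the 26 genes with a row was 1.80 to 2.03 with metformin and 1.71 to 2.04 in control 2 to 4. In control 1 it was 0.95 and in control 5 it was 1.41.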

How the data were processed

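The authors built the genome index with Bowtie v2.0.6 and aligned paired-end reads of blood RNA by TopHat v2.0.9, and their processing notes name TopHat2, Cufflinks and GRCm38. The authors deposited log2 FPKM, where the base is read off the table's name. Sorted by size, the values are almost the same in each library (largest SD 0.0399), as quantile normalization leaves them, a step that is not described and that lets a rise in some transcripts lower the values of others. No counts were used and no depth is known.

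Names and positions come from GENCODE M21 (8897 of 8904 identifiers matched, 7 did not), and promoter windows from RefSeq (Tap1 and Tapbp, 2 of the 3 genes, had one). The 3442 genes that reached a log2 value of 1 in 5 or more libraries were tested. The comparison used limma 3.58.1 under R 4.3.3 (lmFit, eBayes with a trend, two-sided), the Benjamini-Hochberg correction over these genes and a threshold of 0.05. The script was tested on simulated data. Single values were compared by two-sided exact permutation tests over 252 arrangements of libraries, or 56 without control 1 and control 5 (Python 3.11.15, pandas 2.3.3, numpy 2.4.6).

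The members, lists and tests were chosen with earlier results of these data known. The text names every member with a row, B2m, each pathway gene past the threshold, the 2 genes with the smallest p of each pathway list and the 5 genes most like the members. Psmb5, Psmb6, Psmb7, Nlrc5, Irf1, Cd74 and the genes under other observations were named after their values were seen. Alternatives were no filter and a stricter filter, another pseudocount (0.1, assuming an offset of 1), centring on the median, leukocyte markers or ribosomal proteins, leaving out libraries, a replicate block, eBayes without trend or robust, library weights and a threshold of 0.1. Leaving out control 1 and control 5 together with a new filter or with either of those 2 centrings was added after the data were seen.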

Additional observations from a re-analysis of the deposited data

Results flagged for a closer look

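Psmb8 in control 1, at 1.66, was far below the other 4 controls (2.88 to 3.35). The gap to the next control took up 0.718 of the range of its group, past the critical value of 0.71 for 5 samples. It was the 1 such value among 30 groups (15 genes, the metformin-treated and the control group of each), where chance alone gives about 5% of groups. Pan-leukocyte markers averaged 0.65 in the same library, the lowest of the 10, and heart muscle markers 7.82. The part of either in the low Psmb8 value was not tested.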

How the results depend on the processing

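The differences of Tap1, Tap2 and Tapbp stayed below 0 under each alternative that was run, with the exception, for Tap1 and Tap2, of the uniform shift by centring on leukocyte markers or ribosomal proteins. Leaving out 1 library at a time gave -0.60 to -0.26 for Tap1, -0.62 to -0.40 for Tap2, -1.46 to -0.87 for Tapbp, -1.15 to -0.85 for Psmb10 and 0.096 to 0.93 for B2m, and between 0 and 1 loading genes called lower (1 without control 1, Tapbp) and 0 called higher. For the 17 further pathway genes the same gave 0 to 6 called lower (6 without control 1) and 0 higher, and for all tested genes 8 to 237 lower and 43 to 296 higher. The count of all genes called higher was 69, 50, 55, 43 and 47 without metformin-treated mouse 1, 3, 4 and 5 and control 5, and 296 and 226 without control 3 and control 4. That of all genes called lower was 37, 61, 22, 9 and 8 without metformin-treated mice 1 to 5, 20 without control 5 and 237 without control 1. The cause of these shifts was not tested.

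Without control 1 and control 5, 312 genes of all were lower, with 1 loading gene and 7 pathway genes among them, and 239, 1 and 6 with the filter applied again. Library weights gave 345 genes higher and 394 lower, with all 3 loading genes (Tap1 at -0.75, limma adjusted p = 0.0441, Tap2 at -0.72, 0.0295, Tapbp at -1.59, 0.00305) and 10 pathway genes lower. A threshold of 0.1 gave 264 higher and 206 lower, with 1 loading gene and 5 pathway genes lower. No filter left 60 higher and 13 lower, with 0 pathway genes lower (Psmb10 at an adjusted p of 0.0622). The stricter filter left 52 higher and 64 lower, with 0 pathway genes lower, and under it the loading genes and Psmb10 were not tested. Median centring gave 4 pathway genes lower, and eBayes without a trend 2.

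Centring on leukocyte markers gave 235 genes higher and 0 lower over all libraries, with 0 pathway genes lower, and without control 1 and control 5 it gave 3184 higher and 12 lower, with 2 loading genes and 12 pathway genes higher and 0 pathway genes lower. Centring on ribosomal proteins gave 1952 higher and 17 lower, with 1 pathway gene higher and 0 lower, and without the pair 1660 higher, with 2 pathway genes higher and 1 lower (Psmb8 at -0.75, limma adjusted p = 0.0399), and 1 loading gene (Tapbp) lower. Both centrings add a constant to the difference of every gene, and all-gene medians moved to 0.88 and 0.86 (1.69 and 0.78 without the pair), so the signs below are relative to the list used. With leukocyte centring over all libraries the difference was 0.47 for Tap1, 0.36 for Tap2, 0.16 for Hspa5, 0.20 for Irf8, 0.36 for Irf9, 0.014 for Nfkb1, 0.067 for Pdia3, 0.050 for Psmb9 and 0.51 for Rela. Without control 1 and control 5 it was 0.96 for Tap1, 0.99 for Tap2, 0.84 for Hspa5, 0.44 for Irf8, 0.93 for Irf9, 0.47 for Nfkb1, 0.50 for Pdia3, 0.91 for Psmb10, 0.16 for Psmb8, 0.47 for Psmb9 and 1.21 for Rela. With ribosomal centring over all libraries it was 0.45 for Tap1, 0.34 for Tap2, 0.14 for Hspa5, 0.17 for Irf8, 0.34 for Irf9, 0.046 for Pdia3, 0.028 for Psmb9 and 0.49 for Rela, and without the pair 0.047 for Tap1, 0.078 for Tap2, 0.021 for Irf9 and 0.30 for Rela.

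The replicate numbers did not pair the mice: deviations of same-numbered libraries correlated at -0.20, 0.13, 0.12, -0.25 and -0.08. With the number as a replicate block, 29 genes were higher and 1 lower, with 0 loading genes and 0 pathway genes lower. Psmb10 then had an adjusted p of 0.116 (limma). The depth of the libraries is unknown, so no counting error can be given.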

Other observations

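The 2 heart-rich control libraries held other levels of some proteasome genes and of Fcgrt than the other controls, given here as values with no test because these libraries were separated by their content. Psmb5 read 2.92 and 3.07 in heart-rich control 1 and 5, against 1.84 to 1.94 in control 2 to 4, and Psmb6 read 3.76 and 3.81, against 1.43 to 2.54. Psmb7 was nearly level, at 1.87 and 1.80 against 1.47 to 1.76. Fcgrt, the neonatal Fc receptor, which pairs with B2m and did not pass the filter, lay between 0.70 and 0.83 with metformin and between 0.78 and 1.19 in control 2 to 4, but read 1.70 in control 1 and 1.99 in control 5. Hfe, the other class I-like gene with a row, read 0.81 and 0.94 in these libraries, within the 0.53 to 1.37 of control 2 to 4.

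B2m had the same value, 7.60, in metformin-treated mice 1 and 3, and the same value, 8.77, in metformin-treated mouse 5 and control 3. Its rank was also the same within each pair, at 99.5% and 99.7%. Quantile normalization, which the sorted values resemble, gives equal ranks equal values. B2m ranked above 98.0% to 99.7% of the table's genes in every library. Tapbp ranked above 72.2% to 83.0% of the genes in metformin-treated mice, and above 92.8% to 95.2% in control 2 to 4, 73.8% in control 1 and 88.6% in control 5.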
